A study of Mus musculus with 17 samples.

Results

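Of the 41709 genes in the table, 9 genes of decidua and trophoblast were followed through all 17 libraries: Prl8a2, Prl3d1, Prl3b1, Prl2c2, Prl7a1, Tpbpa, Ascl2, Adm and Cryab. They were chosen with values of these libraries in view, and Prl8a2 and Adm were picked because they were high in single libraries, so their levels are a description and carry no test. Each library held the RNA of 1 whole C57BL/6J embryo. The E9.5 experiment set 4 Disp1_CS_INDEL embryos, which inherited the CS allele of Disp1 from CS/+ mothers and the INDEL allele from INDEL/+ fathers, against 4 wild-type Disp1_WT embryos. The E8.5 experiment set 5 Myo10_m1J embryos, homozygous for the m1J allele from heterozygous parents, against 4 wild-type Myo10_WT embryos. Disp1 encodes the protein that releases Hedgehog ligands from producing cells, and Myo10 encodes a motor of filopodia. Which embryos were littermates is not labelled. The labels describe the material as dissected whole embryos and name neither decidua, placenta nor yolk sac.

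The decidua is the maternal uterine stroma that transforms around the implanted embryo, and the trophoblast is the embryo's outer lineage, which builds the placenta and meets the decidua through giant cells. In the mouse, the prolactin gene family has multiplied on chromosome 13, and most of its members are hormones made by decidual and trophoblast cells in pregnancy and not by the pituitary. Prl8a2 encodes decidual prolactin-related protein, Prl3d1 placental lactogen I of early giant cells, Prl3b1 placental lactogen II of later giant cells, Prl2c2 proliferin of giant cells, and Prl7a1 prolactin-like protein E. Tpbpa marks the spongiotrophoblast, Ascl2 is a basic helix-loop-helix factor needed to form it, Adm encodes the vasodilator peptide adrenomedullin, which giant cells make, and Cryab encodes the small heat shock chaperone alpha-B crystallin, abundant in heart and lens.

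Several prolactin genes are near-identical copies, which bears on how far a level can be given to 1 of them. The coding sequence of Prl2c2 (672 bases in GENCODE M21, GRCm38) matched that of Prl2c3 at 99.6% of positions, with 3 mismatches. Over whole transcripts, 80.1% of the 50-base stretches of Prl2c2 occur in Prl2c3 unchanged. In coding sequence, Prl3d1 matched Prl3d2 at 97.9% and Prl3d3 at 98.7%, whereas it matched Prl3b1, the other placental lactogen gene, at 61.0% and Prl8a2 at 44.9%. Levels of Prl2c2 against Prl2c3, and of Prl3d1 against Prl3d2 and Prl3d3, are therefore uncertain, because the counting method is not given in the sources used here. The first 60 coding bases of the Prl2c pair, and coding bases 234 to 293 of the Prl3d trio, are shown. No window of that length holds more differences. The Prl2c window holds 1 of the 3 mismatches, and later windows of that pair hold as many. Capitals mark the bases that differ.
Prl2c2: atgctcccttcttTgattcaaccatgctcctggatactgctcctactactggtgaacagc
Prl2c3: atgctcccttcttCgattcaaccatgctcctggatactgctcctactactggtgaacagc
Prl3d1: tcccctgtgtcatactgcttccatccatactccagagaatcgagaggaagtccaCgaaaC
Prl3d2: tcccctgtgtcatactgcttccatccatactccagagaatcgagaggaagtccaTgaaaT
Prl3d3: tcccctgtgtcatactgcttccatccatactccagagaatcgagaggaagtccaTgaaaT

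The RefSeq promoter table (GRCm38.p6) held 6 of the 9 genes. The 250 bases before the start are shown for Prl3d1 and Prl7a1, which were high in the same libraries, and for Prl3b1, which was not, with capitals marking the AP-1 motif TGANTCA and the GATA motif (the letters GATA with A or T before them and A or G after them), each searched on both strands. Prl3d1 lies at chr13:27093939-27094188 on the plus strand, Prl7a1 at chr13:27642494-27642743 on the minus strand and Prl3b1 at chr13:27242180-27242429 on the plus strand.
Prl3d1: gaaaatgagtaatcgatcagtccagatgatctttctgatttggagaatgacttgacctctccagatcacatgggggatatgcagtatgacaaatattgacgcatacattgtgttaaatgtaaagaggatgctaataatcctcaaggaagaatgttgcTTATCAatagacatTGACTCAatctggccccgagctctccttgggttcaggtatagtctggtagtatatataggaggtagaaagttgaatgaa
Prl7a1: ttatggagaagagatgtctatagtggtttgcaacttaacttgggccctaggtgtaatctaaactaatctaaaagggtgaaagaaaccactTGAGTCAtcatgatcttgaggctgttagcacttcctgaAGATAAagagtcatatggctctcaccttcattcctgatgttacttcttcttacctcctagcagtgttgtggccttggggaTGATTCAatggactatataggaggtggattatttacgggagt
Prl3b1: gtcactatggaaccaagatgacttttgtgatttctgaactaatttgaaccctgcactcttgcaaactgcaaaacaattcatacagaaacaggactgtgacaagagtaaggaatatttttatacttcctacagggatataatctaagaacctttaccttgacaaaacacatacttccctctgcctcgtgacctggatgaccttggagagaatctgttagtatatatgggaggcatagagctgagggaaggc
Positions are those of the first base of a match on the printed strand, before the start. The AP-1 motif had 1 match in the Prl3d1 window, at -79, and at -160 and -42 in the Prl7a1 window. The GATA motif occurred at -93 in Prl3d1 and at -122 in Prl7a1. Neither motif occurred in the windows of Prl3b1, Adm or Ascl2, and Tpbpa held 1 AP-1 match, at -196. Of all 32851 promoters in the table, 6.75% hold the AP-1 motif and 26.5% the GATA motif over the same length. A match describes letters, and nothing was measured of binding.

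All values are TPM, a length-corrected share of each library's transcripts, as deposited. They hold no read counts, so the depth behind each value is unknown. Between 13103 and 13408 genes reached 1 TPM in the E9.5 libraries and between 11926 and 12957 in the E8.5 libraries. Myo10 itself read 2.16 to 4.35 TPM in Myo10_m1J embryos, against 19.9 to 33.9 TPM in Myo10_WT embryos, and Disp1 read 11.6 to 16.3 TPM in Disp1_CS_INDEL embryos, against 15.3 to 19.3 TPM in Disp1_WT embryos. In whole embryos, more cells of a type and more RNA per cell cannot be told apart. The libraries that stood apart for the genes described here were Disp1_WT replicate 3, Myo10_m1J replicate 2 and, at lower levels, Myo10_m1J replicate 1.

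Prl8a2, the decidual hormone gene, read 4.79, 6.76, 2.00 and 1.70 TPM in Disp1_CS_INDEL replicates 1 to 4, against 19.2, 3.38, 551 and 15.4 TPM in Disp1_WT replicates 1 to 4. Disp1_WT replicate 3 was thus far above the other E9.5 libraries, and replicates 1 and 4 of Disp1_WT also lay above all 4 mutant libraries. At E8.5 it read 9.62, 146, 0.239, 0.150 and 0.211 TPM in Myo10_m1J replicates 1 to 5, against 1.50, 2.83, 0.462 and 0 TPM in Myo10_WT replicates 1 to 4. Myo10_m1J replicates 2 and 1 were the 2 highest there, and the remaining Myo10_m1J libraries fell within the range of Myo10_WT.

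Prl3d1, the placental lactogen of early giant cells, read 3.19, 1.13, 1.07 and 6.28 TPM in Disp1_CS_INDEL, against 5.30, 0.463, 113 and 2.64 TPM in Disp1_WT. In the E8.5 libraries it read 9.40, 42.7, 0, 0.482 and 1.43 TPM in Myo10_m1J, against 0.306, 0.593, 0.743 and 0.248 TPM in Myo10_WT. The same 3 libraries were highest as for Prl8a2, and the groups overlapped at both ages.

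Prl2c2, proliferin, read 0.750, 0.668, 0.215 and 2.81 TPM in Disp1_CS_INDEL, against 3.28, 0.186, 75.4 and 1.17 TPM in Disp1_WT. It read 9.07, 25.4, 0.361, 0.516 and 1.45 TPM in Myo10_m1J, against 0.184, 0.714, 0.646 and 0.547 TPM in Myo10_WT. Its near-identical copy Prl2c3 was also highest in Disp1_WT replicate 3 (99.7 TPM), Myo10_m1J replicate 2 (19.9 TPM) and Myo10_m1J replicate 1 (10.04 TPM).

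Prl7a1, prolactin-like protein E, read 0.630, 0.408, 0.0724 and 0.512 TPM in Disp1_CS_INDEL, against 0.858, 0.167, 42.2 and 0.394 TPM in Disp1_WT. It read 4.97, 23.9, 0.0694, 0.578 and 0.652 TPM in Myo10_m1J, against 0.289, 0.240, 0.301 and 0.134 TPM in Myo10_WT. Apart from the 3 libraries named, no library reached 1 TPM.

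Adm, adrenomedullin, read 4.67, 2.74, 4.57 and 2.92 TPM in Disp1_CS_INDEL, against 3.27, 3.88, 53.6 and 2.61 TPM in Disp1_WT. It read 11.0, 61.3, 1.88, 2.58 and 1.59 TPM in Myo10_m1J, against 3.52, 2.12, 1.04 and 2.74 TPM in Myo10_WT. Unlike the prolactin genes it had a level of 1.04 to 4.67 TPM in every other library, and it was higher in Myo10_m1J replicate 2 than in Disp1_WT replicate 3.

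**Figure D1:**
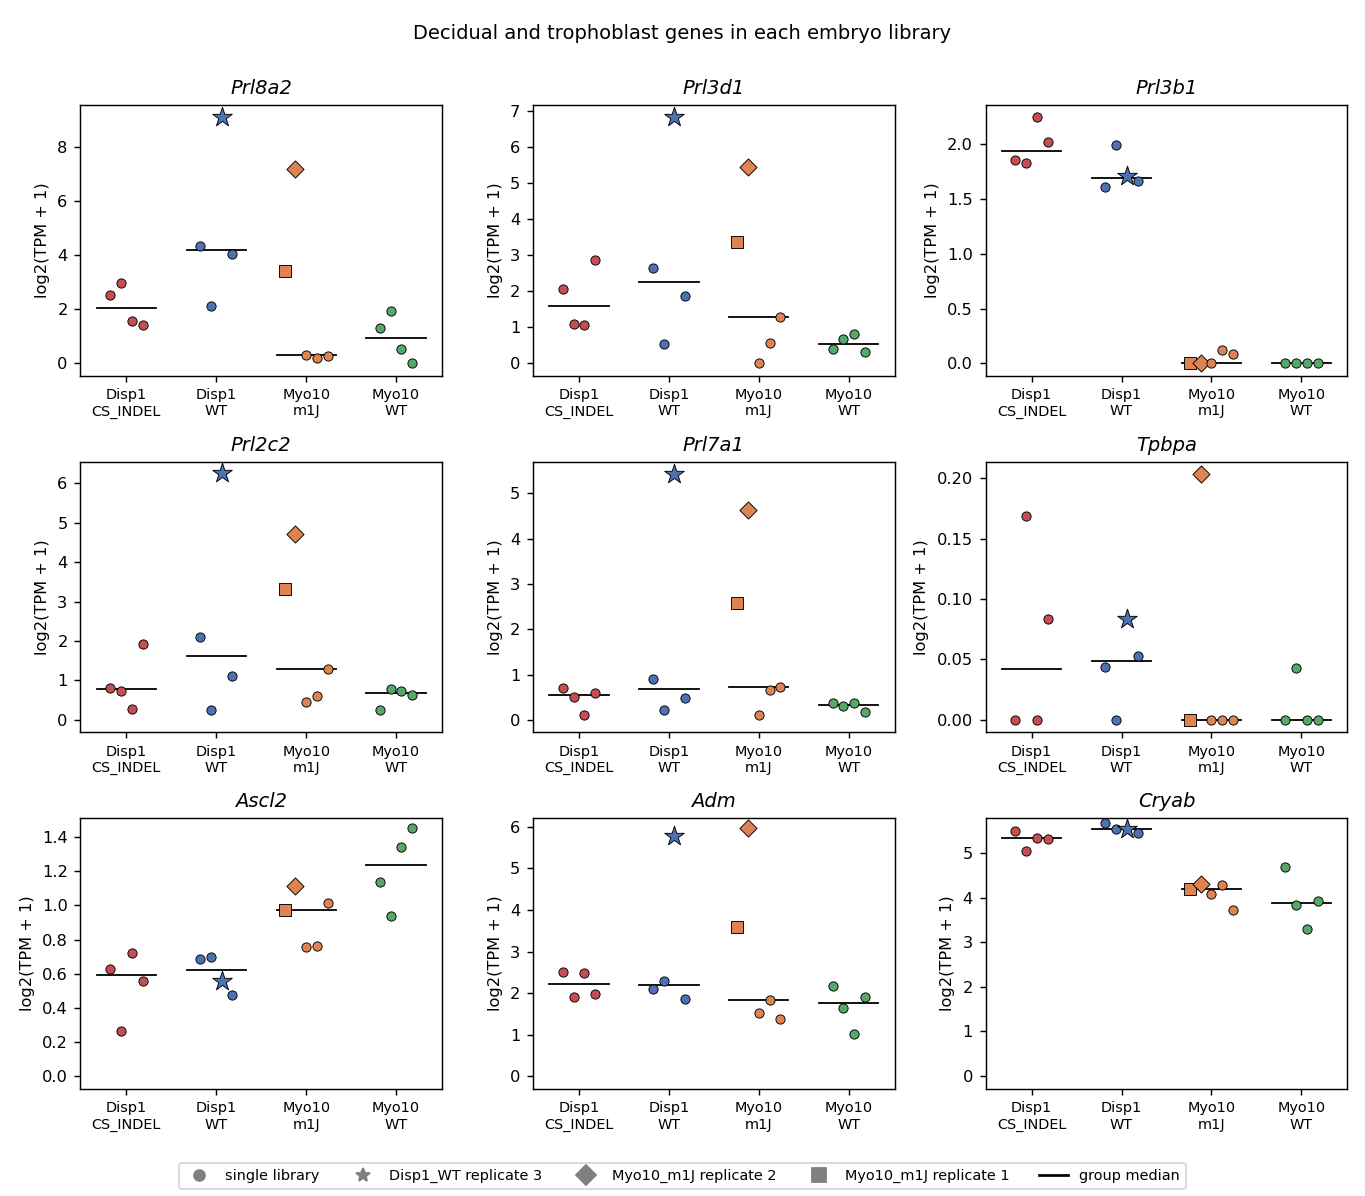
Each point is the log2(TPM + 1) of 1 gene in 1 embryo library, in the order of the replicate numbers, and the line is the group median. Disp1_WT replicate 3 (star), Myo10_m1J replicate 2 (diamond) and Myo10_m1J replicate 1 (square) lie above the other libraries of their age for Prl8a2, Prl3d1, Prl2c2, Prl7a1 and Adm, and among the other libraries for Prl3b1, Ascl2 and Cryab.

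A library was said to carry a gene where it held at least 5 TPM of it and its TPM + 1 was at least 4 times the median TPM + 1 of the other libraries of that age. By this description, Disp1_WT replicate 3 and Myo10_m1J replicate 2 each carried the same 5 genes, Prl8a2, Prl3d1, Prl2c2, Prl7a1 and Adm, and Myo10_m1J replicate 1 carried Prl8a2, Prl3d1 and Prl2c2. Over all genes at or above 5 TPM in any library of that age, the share carried was 0.463% in Disp1_WT replicate 3, 0.529% in Myo10_m1J replicate 2 and 0.16% in Myo10_m1J replicate 1, and since the genes were chosen on these libraries nothing is read from their higher share. No other library carried any of the 9, which makes 13 pairs of library and gene in all, and the share carried in those 14 libraries was 0.0185% to 0.16%. The pairs just inside the limit were Prl2c2, Prl3d1 and Prl8a2 in Myo10_m1J replicate 1, at 6.31, 6.76 and 7.86 times the median. Just outside were Adm in the same library (3.58 times), Prl7a1 there (4.61 times, at 4.97 TPM) and Prl8a2 in Disp1_WT replicates 1 and 4 (3.49 and 2.83 times).

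The 3 libraries held these genes in different proportions. Prl8a2 stood to Prl3d1 in a ratio of 4.87 in Disp1_WT replicate 3, 3.43 in Myo10_m1J replicate 2 and 1.02 in Myo10_m1J replicate 1. Adm stood to Prl8a2 in a ratio of 0.0973 in Disp1_WT replicate 3, 0.419 in Myo10_m1J replicate 2 and 1.14 in Myo10_m1J replicate 1. Of the excess over the median of the other libraries of that age, summed over the 5 genes, Prl8a2 made up 66.3% in Disp1_WT replicate 3, 49.4% in Myo10_m1J replicate 2 and 23.2% in Myo10_m1J replicate 1. The decidual hormone gene therefore took the largest share of the 5 in the first pair of these libraries, with Adm next in Myo10_m1J replicate 2 at 19.9%, while in the last the 3 giant cell or decidual genes and Adm were close to even. Each proportion comes from 1 library of 1 embryo, with no replicate of it, and the first library differs from the other two in age as well.

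**Figure D2:**
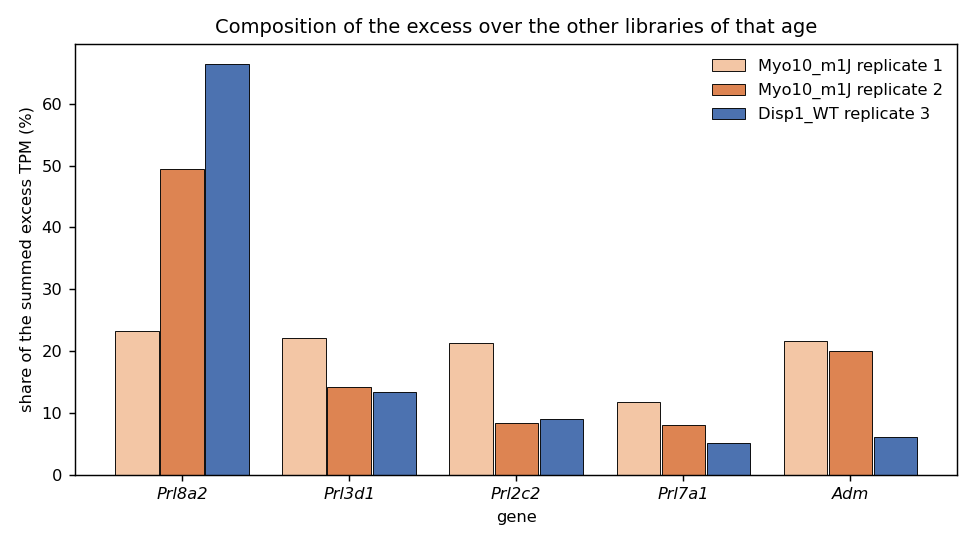
Bars give the share, in percent, that each gene took of the TPM excess over the median of the other libraries of that age, summed over the 5 genes, in the 3 libraries that carry them. Prl8a2 takes 66.3% in Disp1_WT replicate 3 and 23.2% in Myo10_m1J replicate 1, and Adm takes 6.11% and 21.6%.

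The remaining 4 genes did not follow this combination, so the label of decidual and trophoblast carry-over was not borne out for them in these libraries. Prl3b1, the placental lactogen of later giant cells, read 2.62, 2.54, 3.74 and 3.06 TPM in Disp1_CS_INDEL, against 2.05, 2.98, 2.27 and 2.17 TPM in Disp1_WT. Disp1_WT replicate 3 lay within its group. At E8.5 it was listed at 0 in all 4 Myo10_WT libraries and reached at most 0.0879 TPM in Myo10_m1J, with replicates 1 and 2 at 0. Over the 8 E9.5 libraries, the Pearson correlation of its log2(TPM + 1) was -0.64 with Prl8a2, -0.43 with Prl3d1, -0.45 with Prl2c2 and -0.39 with Prl7a1, values that share the high reading of 1 library.

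Tpbpa, the spongiotrophoblast marker, read at most 0.152 TPM in any library, in Myo10_m1J replicate 2, and 0.0598 TPM in Disp1_WT replicate 3. Ascl2 read 0.204 to 0.651 TPM over the 8 E9.5 libraries and 0.693 to 1.74 TPM over the 9 E8.5 libraries, and the 3 libraries above did not stand apart. Cryab read 31.8 to 44.3 TPM in Disp1_CS_INDEL, 42.4 to 49.7 TPM in Disp1_WT, 12.1 to 18.8 TPM in Myo10_m1J and 8.79 to 24.8 TPM in Myo10_WT. It held 45.7 TPM in Disp1_WT replicate 3 and 18.8 TPM in Myo10_m1J replicate 2, both within the range of the other libraries of that age.

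Most other prolactin family genes that reached 1 TPM were also highest in Disp1_WT replicate 3 and Myo10_m1J replicate 2 at their ages. The table lists 25 family genes, of which 13 reached 1 TPM in any library and 5 were at 0 in all. Of those 13, Disp1_WT replicate 3 was the highest E9.5 library for 11, and Myo10_m1J replicate 2 was the highest E8.5 library for 12. The 13 include the 4 carried prolactins, which were chosen on these libraries, and near-identical copies of them. Prl2c5, Prl3d2, Prl3d3, Prl3c1, Prl2a1 and Prl5a1 reached 1 TPM only in these libraries. The counts are therefore partly fixed by the choice of genes, and nothing is read from them. Besides the members, Prl3d2 read 11.3 TPM in Disp1_WT replicate 3 and 3.15 TPM in Myo10_m1J replicate 2, against next values of 0.373 TPM at E9.5 and 0.314 TPM at E8.5. Prl3d3 read 3.79 TPM and 1.32 TPM in these libraries. Prl3b1 was the exception at both ages. Prl4a1, prolactin-like protein A, was the other at E9.5, with 4.88 TPM in Disp1_CS_INDEL replicate 4 and 2.33 TPM in Disp1_WT replicate 3, while at E8.5 Myo10_m1J replicate 2 led with 5.11 TPM.

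Summed over the family, prolactin transcripts came to 910.6 TPM in Disp1_WT replicate 3 and 7.72 to 36.5 TPM in the other 7 E9.5 libraries. At E8.5 the sums were 276 TPM in Myo10_m1J replicate 2, 45.8 TPM in Myo10_m1J replicate 1 and 0.905 to 6.11 TPM in the other 7 libraries. The highest sum was 0.0911% of all TPM of its library. In the RefSeq gene order of chromosome 13, Prl3d1, Prl3b1, Prl8a2 and Prl7a1 stand in 1 block of family genes, with Prl3b1 between carried genes, and Prl2c3, Prl2c2 and Prl2c5 stand apart from that block.

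The genes whose log2(TPM + 1) was most like that of each member over the 17 libraries, by Pearson correlation, were partly shared. For Prl8a2 they were Erv3 (0.96), a gene of an endogenous retrovirus, and Procr (0.96), the endothelial protein C receptor, then Mustn1, Lgals3 and Ctla2a. For Prl7a1 they were the pregnancy-specific glycoprotein genes Psg22 (0.99) and Psg29 (0.97), with Ceacam15 (0.98) of the related adhesion family, Mrgprg (0.95) and Prl3d2 (0.94). Psg22 also led for Adm (0.94), followed by Psg29 and Mrgprg, and Prl2c3 led for Prl3d1 (0.99) and Prl2c2 (0.96). For Cryab the nearest were the muscle genes Csrp3 (0.99), Hrc (0.98), Tnni1 (0.98) and Hspb7 (0.98), and Foxi2 (0.98). These correlations are descriptions over 17 libraries that fall into 2 ages, and those of the carried genes rest on the 3 libraries named.

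What else stood apart in the carrying libraries was read by taking genes of at least 5 TPM whose TPM + 1 was at least 4 times the next highest of that age. Disp1_WT replicate 3 had 46 such genes and Myo10_m1J replicate 2 had 20, while the other 15 libraries had 0 to 2 each. The 5 genes Adm, Mrgprg, Prl3d1, Prl7a1 and Prl8a2 were on both lists, 10.9% of the first and 25% of the second. Of the 46, 21 were also at their E8.5 maximum in Myo10_m1J replicate 2, and of the 20, 12 were at their E9.5 maximum in Disp1_WT replicate 3. Both counts include members chosen on these libraries. Some maxima were slight, as for Fgg in Myo10_m1J replicate 2, at 23.8 TPM against 23.6 TPM in the next E8.5 library. The share of all genes at their maximum in these libraries is not given here, so nothing is read from the counts.

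Disp1_WT replicate 3 also held the genes of visceral yolk sac endoderm, the absorptive layer of the yolk sac that secretes serum proteins. Of its 46 genes, 12 were on the list of 15 such genes. Apoa1 read 246 TPM there, against a next value of 12.1 TPM, Ttr 196 TPM against 13.6 TPM, and Afp 210.004 TPM against 31.1 TPM. The 15 genes summed to 1159 TPM in that library, and to 65.3 to 122.6 TPM in the other 7 E9.5 libraries of both groups. In E8.5 libraries the same sum was high throughout, 874 to 2562 TPM in Myo10_m1J and 1049 to 3076 TPM in Myo10_WT, and none of the 15 led in Myo10_m1J replicate 2. Further genes of Disp1_WT replicate 3 were Aoc1l2 (37.3 TPM), Pate11 (53.2 TPM), Pate12 (23.2 TPM), Ceacam9 (17.6 TPM) and Htra1 (83.8 TPM), a secreted serine protease. The part of yolk sac transcripts in the levels of the 9 genes was not tested.

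Myo10_m1J replicate 2 held another set beside the shared genes. It led for Ly6a (42.6 TPM) and Ly6c1 (28.8 TPM), surface proteins of vessels and blood cells, for A2m (115 TPM), an alpha-2-macroglobulin, for S100a8 (10.4 TPM), a neutrophil protein, for Srgn (18.4 TPM), S100a4 (20.96 TPM), Cxcl14 (17.4 TPM) and Angpt2 (20.3 TPM), an angiopoietin. Of these, S100a8 (2.48 TPM), Srgn (2.59 TPM) and Ly6c1 (2.05 TPM) were also at their E9.5 maximum in Disp1_WT replicate 3, where Angpt2 (2.75 TPM) was within the range of the other E9.5 libraries. The other neutrophil genes listed did not go with S100a8 in Myo10_m1J replicate 2. There S100a9 read 0.207 TPM, Mpo 0.126 TPM and Ltf 0.0469 TPM, and Ngp, Camp, Elane and Retnlg were at 0. Myo10_m1J replicate 1, the third carrier, led for no gene by this description. Of the 16 genes it carried by the looser one, 9 were also carried by Myo10_m1J replicate 2, among them A2m and the adult globin genes Hba-a1, Hba-a2, Hbb-bs and Hbb-bt. Hbb-bs read 301 TPM in Myo10_m1J replicate 1 and 128 TPM in replicate 2, against at most 92.2 TPM in Myo10_WT.

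**Figure D3:**
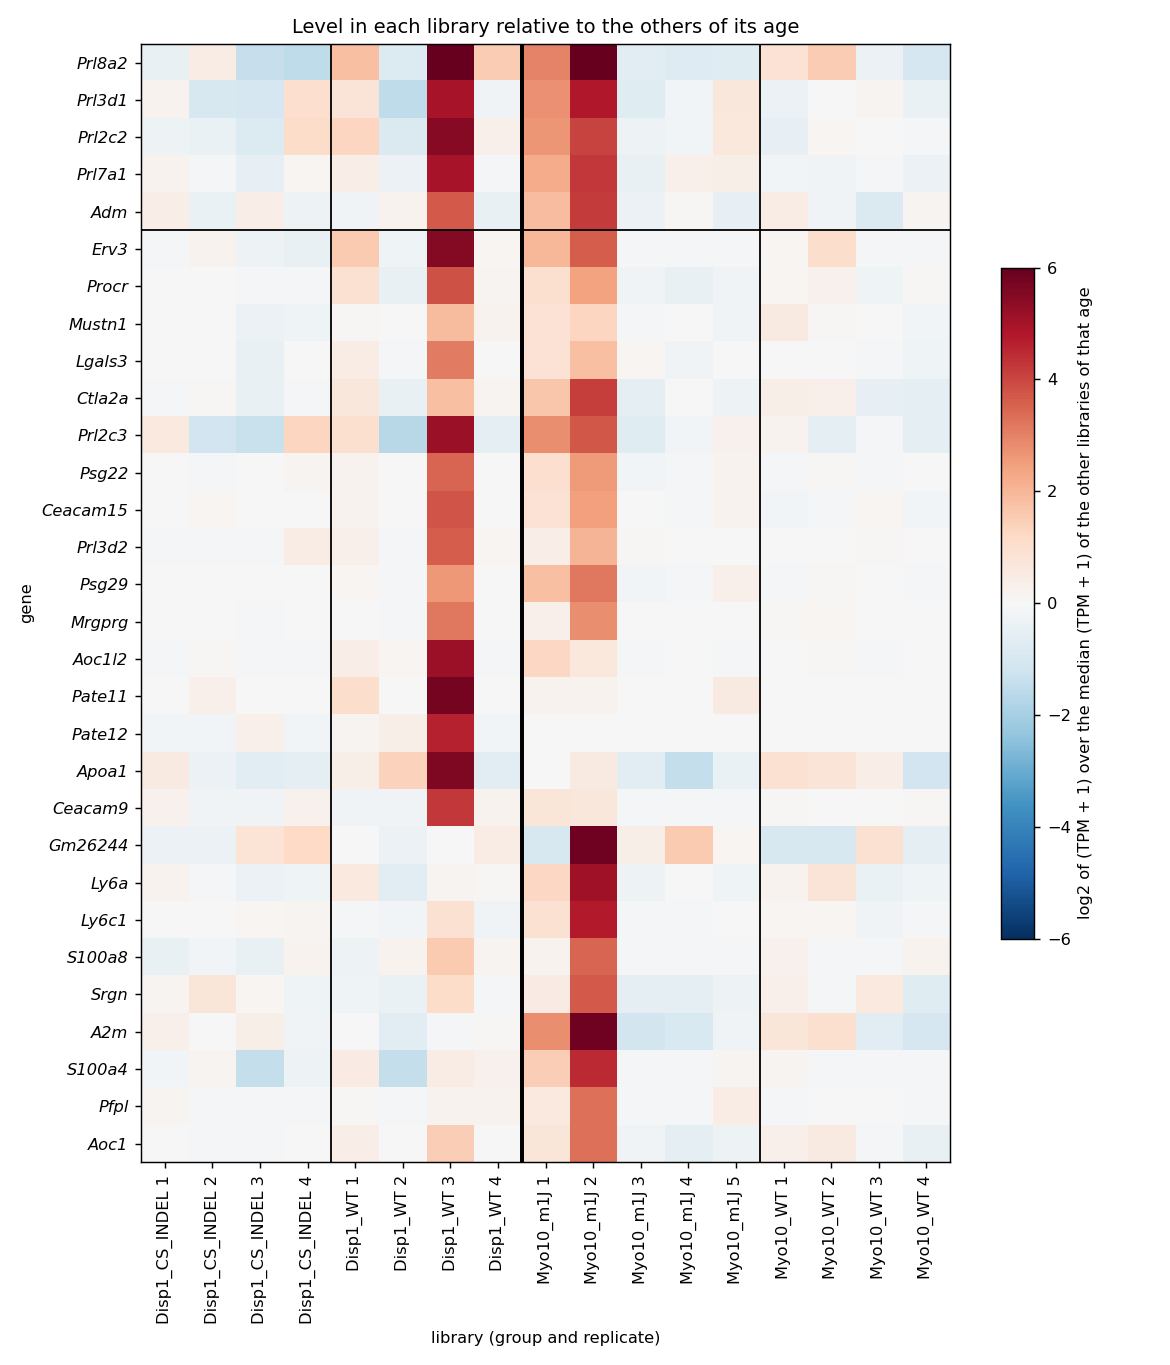
Colour gives the log2 ratio of TPM + 1 in each library (columns) to the median TPM + 1 of the other libraries of that age, for the 5 carried genes (above the line), the genes most like them and the genes that led in Disp1_WT replicate 3 or Myo10_m1J replicate 2 (rows). The prolactin, Psg and Ceacam15 rows are red in both libraries, whereas Apoa1, Pate11 and Ceacam9 are dark red in Disp1_WT replicate 3 alone, and Ly6a, Ly6c1 and A2m are darkest in Myo10_m1J replicate 2.

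Markers of the spongiotrophoblast differed among themselves in the carriers. Tpbpb, Prl7a2, Prl7b1, Prl8a8, Prl3a1, Psg17, Psg18 and Psg21 of that layer, and Ctsq of sinusoidal giant cells, were below 0.1 TPM in Disp1_WT replicate 3 and Myo10_m1J replicate 2. Prl5a1, another gene of the spongiotrophoblast list, read 1.98 TPM in Disp1_WT replicate 3 and 4.37 TPM in Myo10_m1J replicate 2, the highest of each age. The 17-gene list, which includes Tpbpa, Ascl2 and Prl7a1, summed to 69.2 TPM in Disp1_WT replicate 3 and 24.7 to 27.9 TPM in the other E9.5 libraries, and to 57.1 TPM in Myo10_m1J replicate 2, 35.1 TPM in Myo10_m1J replicate 1 and 16.995 to 29.5 TPM in the other E8.5 libraries. Without these 3 members the sums were 26.5 TPM in Disp1_WT replicate 3 and 23.9 to 27.2 TPM in the others of its age, and 31.9 TPM in Myo10_m1J replicate 2, 29.2 TPM in Myo10_m1J replicate 1 and 15.7 to 28.0 TPM in the others of theirs. Esx1, a homeobox gene of the labyrinth, read 3.41 TPM in Disp1_WT replicate 3, against a next E9.5 value of 0.734 TPM, and at E8.5 it was highest in Myo10_WT replicate 1, at 2.80 TPM. Hand1, a factor of giant cells that the embryo's heart and flank also express, read 67.4 TPM in Disp1_WT replicate 3 and 53.3 to 85.7 TPM in the other E9.5 libraries. The 12 uterine natural killer cell genes went differently with the decidual hormone at the 2 ages. At E9.5 their sum was highest in Disp1_CS_INDEL replicate 4, at 19.3 TPM with Gzmd at 5.37 TPM, the library with the lowest Prl8a2 of its age, and Disp1_WT replicate 3 held 8.16 TPM. At E8.5 the sum was highest in the 2 libraries with the most Prl8a2, at 3.36 TPM in Myo10_m1J replicate 2 and 1.24 TPM in Myo10_m1J replicate 1, and 0.180 to 0.858 TPM in the other 7. Calcrl, the adrenomedullin receptor gene, read 8.52 TPM in Disp1_WT replicate 3 and 7.12 to 9.33 TPM in the other E9.5 libraries, and 12.6 TPM in Myo10_m1J replicate 2, where the next E8.5 value was 11.5 TPM. The 6 genes of the adrenomedullin pathway list other than Adm summed to 71.3 TPM in Disp1_WT replicate 3, within the 63.3 to 76.4 TPM of the other E9.5 libraries. They summed to 42.1 TPM in Myo10_m1J replicate 2, above the 24.7 to 37.6 TPM of the 7 E8.5 libraries that carry no member. No gene of the 16-gene hypoxia list was carried by any of the 3 libraries. These carried 0.16% to 0.529% of all genes at or above 5 TPM at their age, so nothing is read from this about hypoxia.

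Xist, the RNA of the inactive X chromosome, and Y-linked transcripts were read because the decidua is maternal tissue. Disp1_WT replicate 3 held Y-linked transcripts (30.1 TPM in all) and Xist at 0.00711 TPM, within the 0 to 0.0152 TPM of the other 5 E9.5 libraries with Y-linked transcripts, beside its 551 TPM of Prl8a2. The 2 E9.5 libraries without Y-linked transcripts held 12.7 TPM of Xist each. Myo10_m1J replicate 2 held Y-linked transcripts (51.5 TPM) and Xist at 1.27 TPM, above the 0.0914 to 0.287 TPM of the other 3 E8.5 libraries with Y-linked transcripts and below the 9.37 to 20.9 TPM of the 5 without. Myo10_m1J replicate 1 was among the 5 without (0.0362 TPM Y-linked, 10.9 TPM Xist), where Xist of the embryo and of the mother cannot be told apart. What share of Prl8a2 in either library came from maternal cells was not tested.

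**Figure D4:**
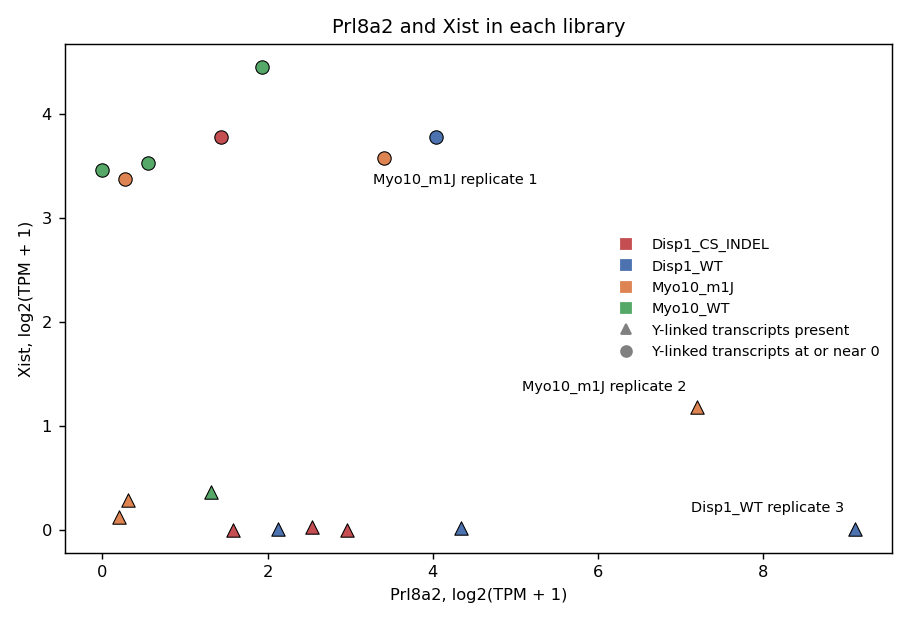
Each point is 1 library, with log2(TPM + 1) of Prl8a2 across and of Xist up; triangles have Y-linked transcripts, circles have none or nearly none, and colours give the groups. Disp1_WT replicate 3 sits at 551 TPM of Prl8a2 and 0.00711 TPM of Xist, and Myo10_m1J replicate 2 at 146 TPM and 1.27 TPM.

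Between Disp1_CS_INDEL and Disp1_WT, limma called 0.00752% of 13294 genes higher and 0.0226% lower at an adjusted p under 0.05, and none of the 4 members tested there was called. Prl3d1 averaged 2.92 ± 2.45 TPM in Disp1_CS_INDEL and 30.4 ± 55.2 TPM in Disp1_WT (SD, n = 4 each), with a log2 difference of -1.21 (SE 1.096, limma adjusted p = 0.999979). Without Disp1_WT replicate 3 that difference was 0.08. Prl2c2 differed by -1.49 (SE 1.059), which became -0.22 without that library. Prl2c2 passed the filter only with that library, on which the genes were chosen, so nothing is read from its test. Cryab averaged 38.6 ± 5.12 TPM in Disp1_CS_INDEL and 45.7 ± 3.02 TPM in Disp1_WT (SD, n = 4 each), a log2 difference of -0.25 (SE 0.093). Prl3b1 averaged 2.99 ± 0.549 TPM in Disp1_CS_INDEL and 2.37 ± 0.415 TPM in Disp1_WT, a log2 difference of 0.24 (SE 0.125). All 4 had the same limma adjusted p of 0.999979, and Prl7a1, Tpbpa and Ascl2 did not pass the filter of 1 TPM in 4 libraries.

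Between Myo10_m1J and Myo10_WT, limma called no gene higher and 0.00796% of 12560 genes lower, with 854 genes at an unadjusted p under 0.05. Of the members not picked on their values, only Ascl2 and Cryab passed the filter, and neither was called. Ascl2 averaged 0.905 ± 0.208 TPM in Myo10_m1J (SD, n = 5) and 1.35 ± 0.362 TPM in Myo10_WT (SD, n = 4), a log2 difference of -0.29 (SE 0.145, limma adjusted p = 0.473), where the median of all genes was -0.16. Cryab averaged 16.5 ± 2.69 TPM in Myo10_m1J and 15.3 ± 6.78 TPM in Myo10_WT, a log2 difference of 0.18 (SE 0.227, limma adjusted p = 0.595), and -0.03 without Myo10_WT replicate 3.

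The group differences of the carried genes rested largely on the carrying libraries, Prl8a2 between Disp1_CS_INDEL and Disp1_WT only in part. The difference of mean log2(TPM + 1) for Adm was -0.79 between Disp1_CS_INDEL and Disp1_WT and 0.13 without Disp1_WT replicate 3, and it was 1.17 between Myo10_m1J and Myo10_WT and -0.11 without Myo10_m1J replicates 1 and 2. For Prl8a2 it was -2.78 between Disp1_CS_INDEL and Disp1_WT and stayed at -1.37 without Disp1_WT replicate 3, since Disp1_WT replicates 1 and 4 were also above the mutants. Between Myo10_m1J and Myo10_WT it was 1.33, and -0.69 without the 2 libraries. Leaving out Myo10_m1J replicate 2 alone gave 0.10 for Prl8a2 and 0.39 for Adm. It took Prl3d1 from 1.59 to 0.76, Prl2c2 from 1.49 to 0.83 and Prl7a1 from 1.43 to 0.71. These came to 0.07, 0.19 and 0.18 only without replicates 1 and 2 together. All values in this paragraph are given without a test.

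**Figure D5:**
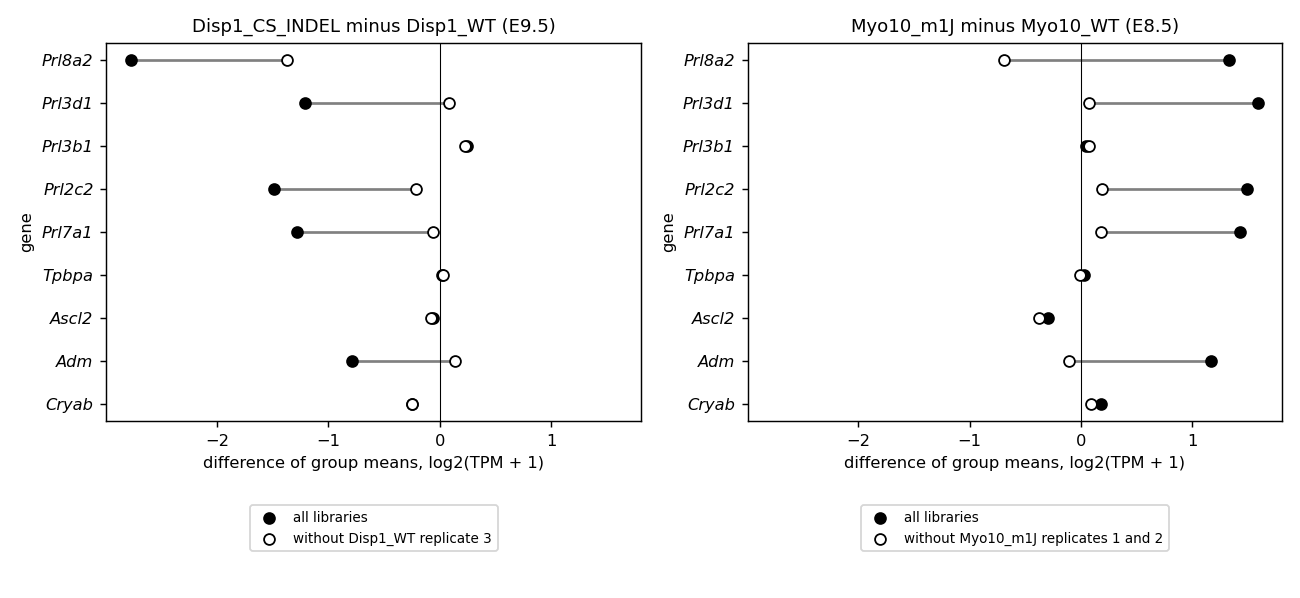
Points are differences of group means of log2(TPM + 1) for the 9 genes, with all libraries (filled) and without the carrying libraries (open), for Disp1_CS_INDEL minus Disp1_WT on the left and Myo10_m1J minus Myo10_WT on the right. The open points of Prl3d1, Prl2c2, Prl7a1 and Adm lie near 0 on both sides, while Prl8a2 stays at -1.37 on the left.

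None of the cell type lists held a called gene in either mutant comparison. Over all genes, at most 0.0226% were called in either direction at E9.5 and 0.00796% at E8.5, so nothing is read from this about the lists. In Disp1_CS_INDEL against Disp1_WT, the median log2 difference of the 8 giant cell genes that passed the filter, of 12 listed, was -0.56, and that of 11 yolk sac endoderm genes, of 15 listed, was -0.96, beside 0.01 over all genes. Over the same genes without Disp1_WT replicate 3, the medians were 0.11 for giant cell genes and -0.13 for yolk sac endoderm genes. The giant cell list holds Prl3d1, Prl2c2 and Adm, members that this library carries. The 12 decidual stroma genes that passed had a median of -0.08, and -0.16 without that library. In Myo10_m1J against Myo10_WT, the 3 giant cell genes that passed had a median of 0.09 and the 12 decidual stroma genes 0.08, beside -0.16 over all genes. Without Myo10_m1J replicates 1 and 2 these were -0.11 and -0.16, beside -0.22 over all genes. The 3 giant cell genes were Hand1, Mmp9 and Adm, with no prolactin gene among them, and -0.11 was the value of Adm itself. Adm, and Prl8a2 among the 12 decidual stroma genes, were picked on their values.

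Between the wild types of the 2 ages, Cryab was higher at E9.5. It averaged 45.7 ± 3.02 TPM in Disp1_WT and 15.3 ± 6.78 TPM in Myo10_WT (SD, n = 4 each), a log2 difference of 1.61 (SE 0.228, limma adjusted p = 5.73e-05), and the lowest Disp1_WT library (42.4 TPM) lay above the highest Myo10_WT library (24.8 TPM). In this comparison limma called 69.4% of 13397 genes higher and 10.2% lower, and the median of all genes was 0.62. The small noncoding RNAs Rn7s1, Rn7s2 and Rpph1 took 19.0% to 30.2% of all TPM in the E8.5 libraries and 0.0024% to 0.00962% in the E9.5 libraries, and TPM being a share of the total, such RNAs leave less of it to other genes. After median-of-ratios scaling 4860 genes were called higher and 4827 lower, and Cryab stood at 0.96. Age, colony and experiment cannot be told apart here.

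Of 11 small heat shock and lens crystallin genes, 7 passed the filter and limma called all 7 higher in Disp1_WT than in Myo10_WT, and of 11 heart muscle genes it called 10 higher and none lower, beside the 69.4% called higher among all genes. With median-of-ratios scaling the counts were 7 and 7, beside 36.4% of all genes. The yolk sac endoderm list went the other way, although Disp1_WT replicate 3 was high for it. Of its 15 genes, 14 were called lower in Disp1_WT, beside 10.2% of all genes. With median-of-ratios scaling all 15 were called lower, beside 36.2% of all genes. Prl3b1 averaged 2.37 ± 0.415 TPM in Disp1_WT (SD, n = 4) and was listed at 0 in every Myo10_WT library, so no fold is given. It passed the filter through the E9.5 libraries alone, so no test of it is given.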

How the data were processed

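RNA of single whole embryos was made into TruSeq libraries and sequenced on a NovaSeq, per the labels' protocols. The authors deposited 1 table of TPM per gene symbol for the 17 libraries, each summing to the same total. The submitters' processing notes name GRCm39 (mm39), and how reads were aligned, quantified and assigned to strands is not given in the sources used here. Samples were grouped by their titles, and no column was left out.

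The 9 genes, the 14 marker lists and the rules were chosen with earlier results of these data known. A library carries a gene, or leads for it, by the limits given with the results, and the genes named are the 9, the prolactin family genes reaching 1 TPM, the 5 most correlated with each member reaching 5 TPM, the 10 leading genes of each library and list members. Mrgprg, Htra1, Cxcl14 and Angpt2, and the list genes given as examples, were named after their values were seen. Groups were compared with limma 3.58.1 in R 4.3.3 on log2(TPM + 1), letting the variance follow the mean level and adjusting by Benjamini-Hochberg at 0.05, for genes of at least 1 TPM in at least 4 libraries. This scale understates the change of low genes. Each experiment was fitted alone, and p-values measure the spread between embryos. The script was tested on simulated data with 200 changed genes. Sequences came from RefSeq promoters (GRCm38.p6) and GENCODE M21 coding sequences, aligned in Biopython 1.88. Same-numbered replicates did not deviate together (see the dependence on processing), so no block was used. Tried as alternatives were median-of-ratios scaling, a replicate block, a pseudocount of 0.1, no variance trend, no low-value filter or a filter on a mean of 5 TPM, other limits for carrying and leading, and each library left out in turn.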

Additional observations from a re-analysis of the deposited data

Results flagged for a closer look

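In each group of 4 or 5 libraries, the gap between the most extreme library and its neighbour was set against the range of the group by Dixon's 95% limit. Its rate of about 1 of 20 groups by chance is for normally spread values of genes not chosen on them. That rate does not hold here. Of 36 pairs of gene and group, 11 passed, 5 in Disp1_WT replicate 3, 5 in Myo10_m1J replicate 2 and 1 in Myo10_WT replicate 2. The 9 genes were chosen on such values, so the number is a description and not a test. A gene above 0 in only 1 library of a group passes whatever its level, as Tpbpa did.

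In Disp1_WT replicate 3 these were Prl8a2 (551 TPM, the others of the group 3.38 to 19.2 TPM), Prl3d1 (113 TPM, the others 0.463 to 5.30 TPM), Prl2c2 (75.4 TPM, the others 0.186 to 3.28 TPM), Prl7a1 (42.2 TPM, the others 0.167 to 0.858 TPM) and Adm (53.6 TPM, the others 2.61 to 3.88 TPM). In Myo10_m1J replicate 2 they were Prl8a2 (146 TPM), Prl3d1 (42.7 TPM), Prl7a1 (23.9 TPM) and Adm (61.3 TPM), with Myo10_m1J replicate 1 as the nearest library each time, and Tpbpa (0.152 TPM, all others of the group at 0). Prl2c2 in Myo10_m1J replicate 2 stayed inside the limit, since replicate 1 was at 9.07 TPM. In Myo10_WT replicate 2, Tpbpa read 0.0304 TPM with the other 3 libraries at 0, a level far below 1 TPM.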

How the results depend on the processing

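The carried pairs came to 13, and to 8 without Disp1_WT replicate 3 or without Myo10_m1J replicate 2, a range of 8 to 13 over the libraries left out. Leading genes summed to 72 over all libraries, to 140 with a limit of 2 times the next library, and to 27 to 82 with 1 library left out, the lowest without Disp1_WT replicate 3. Disp1_CS_INDEL against Disp1_WT gave 1 gene higher and 3 lower, with 1 lower without the filter and 1 lower with a replicate block, 0 higher at a mean TPM of at least 5, and 2 higher and 6 lower after median-of-ratios scaling. With 1 library left out it gave 0 to 1 higher (0 without any one of Disp1_CS_INDEL replicates 1 to 4) and 1 to 2 lower (1 without Disp1_WT replicate 1 or 2 or Disp1_CS_INDEL replicate 2, 3 or 4). Myo10_m1J against Myo10_WT gave 0 higher and 1 lower, 2 lower without the filter, and 0 to 1 higher and 1 to 2 lower with 1 library left out (1 higher and 2 lower without Myo10_WT replicate 4), and 0 higher and 1 lower without Myo10_m1J replicates 1 and 2 together. This pair of omissions, the recount of leading genes by library and the list medians without the carrying libraries were chosen after the data had been seen. With the replicate block it gave 1 higher and 45 lower. Same-numbered libraries correlated at -0.29 to 0.46 in their deviations, and only number 4 was closest to its own number, so the numbers were not taken to pair embryos. Disp1_WT against Myo10_WT gave 2139 lower without the filter, 4860 higher and 4827 lower after scaling, and 8244 to 9648 higher and 979 to 1400 lower with 1 library left out. With 1 library left out, the log2 difference of Prl3d1 in Disp1_CS_INDEL ranged from -2.02 to 0.079, turning sign without Disp1_WT replicate 3, and that of Cryab in Myo10_m1J from -0.034 to 0.43, turning sign without Myo10_WT replicate 3. The cause of these moves was not tested. No call of a member changed, and Cryab between the ages ranged from 0.96 to 1.86. TPM keeps no depth, so how depth limits low values is unknown.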

Other observations

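Hoxa10 and Hoxa11, homeobox genes of the posterior body that uterine stroma also expresses, were low in Disp1_WT replicate 3 (2.07 and 2.99 TPM) and in Disp1_CS_INDEL replicate 1 (1.92 and 3.40 TPM), and 9.57 to 11.7 TPM and 11.1 to 15.4 TPM in the other 6 E9.5 libraries. At E9.5 the library with the most Prl8a2 was therefore among the lowest for both. Cdx2 was low in the same libraries, at 3.08 TPM in Disp1_WT replicate 3 and 2.59 TPM in Disp1_CS_INDEL replicate 1, against 9.51 to 23.1 TPM in the other 6. At E8.5 the carrier Myo10_m1J replicate 2 went the other way. It was the highest library for Hoxa10 (5.18 TPM, next 4.15 TPM) and Hoxa11 (6.34 TPM, next 4.51 TPM). What lies behind these levels was not tested.

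Des, the muscle filament desmin, is on both the decidual stroma and the heart muscle list. It read 42.0 TPM in Myo10_m1J replicate 2, against 7.16 to 14.8 TPM in the other Myo10_m1J libraries and 5.30 to 17.4 TPM in Myo10_WT. The 16 decidual stroma genes, Prl8a2 included, summed to 728 TPM in Disp1_WT replicate 3 and 185 to 245 TPM in the other 7 E9.5 libraries. At E8.5 they summed to 321 TPM in Myo10_m1J replicate 2 and 80.0 to 122 TPM in the 7 libraries that carry no member. Prl8a2 made up 551 TPM and 146 TPM of the 2 highest sums. Without the members Prl8a2 and Cryab, the other 7 E9.5 libraries summed to 136 to 176 TPM, and Disp1_WT replicate 3 lay below that range. The rest of the list was thus not raised in that library. At E8.5 the 7 libraries that carry no member summed to 61.5 to 106 TPM without them, and Myo10_m1J replicate 2 lay above that range.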
